A study of Mus musculus with 7 samples.

Results

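CCN and thrombospondin genes encode secreted matricellular proteins, which bind the extracellular matrix and cell surface receptors without building the matrix themselves. The genes were taken by name: Ccn1 (formerly Cyr61), Ccn2 (Ctgf), Ccn3 (Nov), Ccn4 (Wisp1), Ccn5 (Wisp2), Thbs1, Thbs2, Thbs3, Thbs4 and Comp. All 10 were found under their current symbols among the 55401 genes of the table, 5 of them CCN and 5 of them thrombospondin genes. All 10 passed the filter on low counts, with between 10 and 29192 reads per gene and mouse.

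Lung RNA was sequenced from 7 bleomycin-challenged mice, of which 4 received no further treatment with oxygen (BLM) and 3 were exposed to hyperbaric oxygen (BLM+HBO). Bleomycin is a cytotoxic drug that injures the lung and leaves fibrosis when given into the trachea. Hyperbaric oxygen (HBO) is oxygen breathed in a chamber above atmospheric pressure. The comparison asked how the lung transcriptome of bleomycin-challenged mice differed when they also received HBO.

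All 7 mice were male C57BL/6 mice of 6 to 8 weeks that received bleomycin, so no unchallenged lung was compared here. HBO was given at 2.5 ATA for 90 min per day on 14 days starting on day 7, and all lungs were taken on day 21. For BLM mice, the labels describe time in the chamber with no pressurised oxygen and the study's methods describe no treatment, and this was not settled here. Each library came from 1 mouse, and the study had left out mice that lost too little weight after bleomycin. No label states a litter, cage or sequencing batch. Since whole lung was sequenced, fewer cells of a type and less RNA per cell cannot be told apart for any gene below.

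CCN proteins are built from the same small set of modules and act through integrins, heparan sulphate proteoglycans and growth factors that they bind. Ccn1 and Ccn2 are textbook targets of the YAP and TAZ coactivators and their TEAD partners, Ccn2 also of TGF-beta, and Ccn2 is a long-used marker of fibrosis. Thrombospondins fall into a trimeric group, Thbs1 and Thbs2, and a pentameric group, Thbs3, Thbs4 and Comp, and Thbs1 is known for releasing TGF-beta from its latent complex and for binding Cd47 and Cd36.

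The libraries held between 18157161 and 26365969 counted reads, and any pair of mice within a group differed by more than counting noise (chi-square per gene 22.1 or higher). The first principal component of log2 CPM (37.3% of the variance) placed the 4 BLM mice at -47.6 to -6.08 and BLM+HBO 2 beside them, at -0.996. It placed BLM+HBO 1 at 54.8 and BLM+HBO 3 at 37.8. The alveolar epithelial markers, among them the surfactant genes that define distal lung, summed to between 10939 and 30335 CPM, so every library read as lung. CPM is the read count scaled to the normalized library size. Because BLM+HBO 2 stood apart from the other BLM+HBO mice, the result for each of the 10 genes is given with and without it. BLM+HBO 2 was singled out from these same data, as the BLM+HBO mouse nearest to the BLM mice. Leaving it out therefore tends to widen the differences between groups. P-values without it describe the remaining mice and are no independent evidence of a difference.

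Of the 10 genes, Ccn4 and Thbs2 fell in BLM+HBO at the study's thresholds of an unadjusted P below 0.05 and a fold change above 1.5 (edgeR quasi-likelihood test), and 0 rose. Over all 17465 genes tested, 2.89% fell and 3.4% rose at these thresholds. After Benjamini-Hochberg adjustment over all genes, 0 of the 10 passed 0.05, as did 0% of all genes, with 1861 genes at an unadjusted P below 0.05. DESeq2 called 151 genes after adjustment and limma-trend called 0, and neither list held any of the 10. The estimate was below 0 for 7 of the 10 genes, with a median log2 fold change of -0.34, where the median over all genes tested was 0.0071. The median was -0.15 over the 5 CCN genes and -0.86 over the 5 thrombospondin genes. The groups did not overlap for 1 of the 10, Ccn4, which was lower in every BLM+HBO mouse. Over all genes, this held for 4.72% with BLM+HBO lower and 4.05% with BLM+HBO higher.

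Without BLM+HBO 2, 5 of the 10 genes passed both thresholds, all lower in BLM+HBO: Ccn2, Ccn4, Thbs1, Thbs2 and Thbs4. In that fit 5.41% of 17879 genes were called lower. Ccn4, Thbs2 and Thbs4 then also passed an adjusted P of 0.05, as did 1.14% of genes in the same direction. The other 5 genes did not pass without BLM+HBO 2, with log2 fold changes of -0.20 for Ccn1, 0.41 for Ccn3, -0.22 for Ccn5, 0.65 for Thbs3 and -0.50 for Comp.

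**Figure D1:**
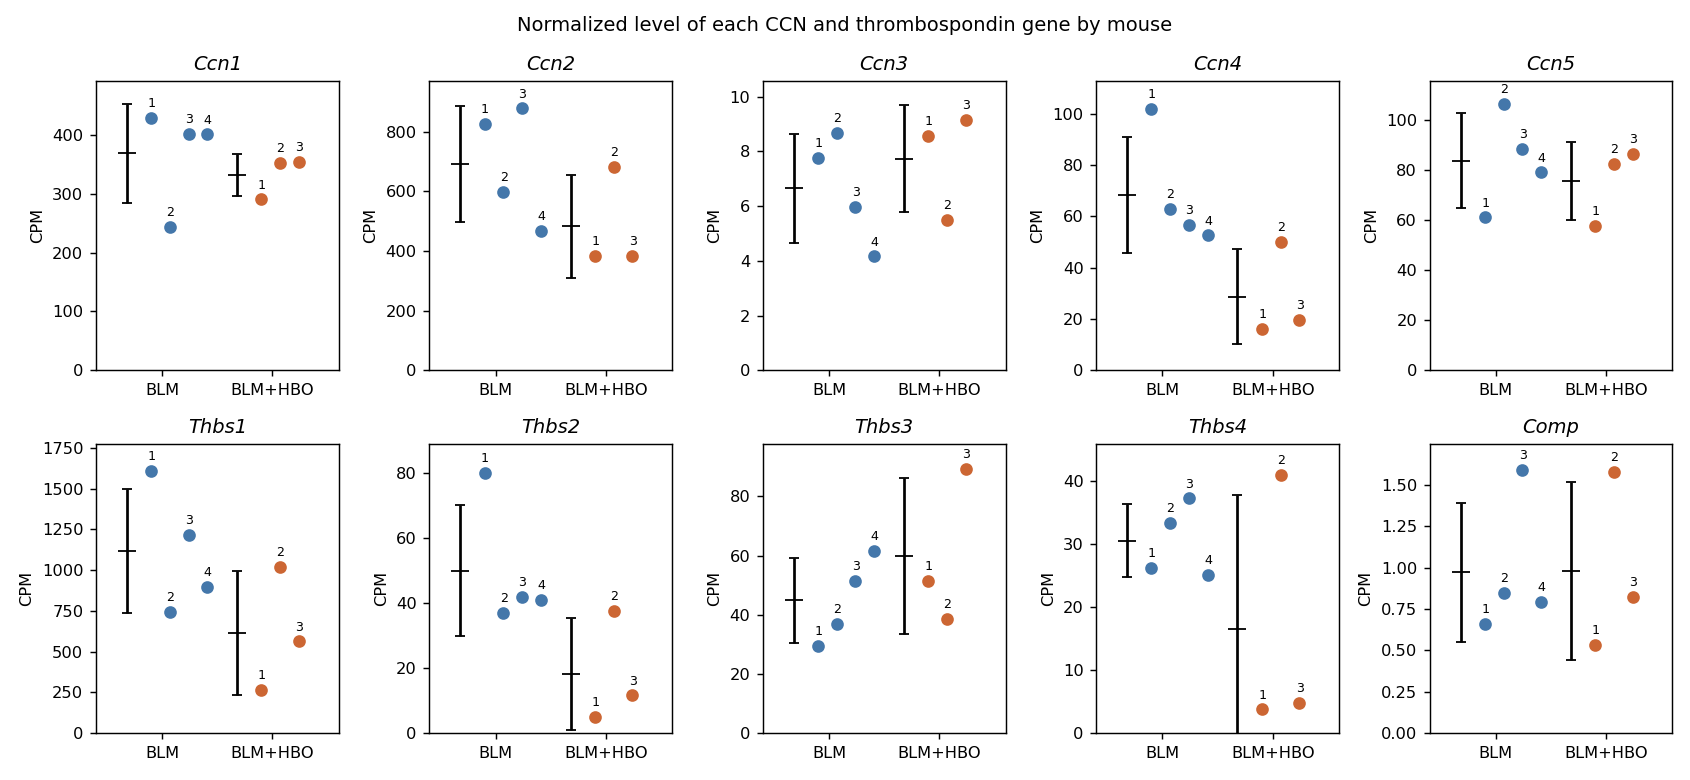
Normalized level in CPM of each of the 10 genes, with 1 numbered point per mouse (blue BLM, n = 4, orange BLM+HBO, n = 3) and the group mean ± SD as a bar at the left of the points (the lower end of the Thbs4 BLM+HBO bar is cut at 0). For Ccn4 all 3 BLM+HBO mice lie below all BLM mice, whereas for Thbs1, Thbs2 and Thbs4 BLM+HBO 2 lies among or above the BLM mice and BLM+HBO 1 and 3 lie below them.

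Among the CCN genes, Ccn4 showed the lowest estimate. Ccn4 (ENSMUSG00000005124.10, GRCm38 chromosome 15, 66891320 to 66923201, plus strand) encodes a Wnt-inducible protein known in lung fibrosis as a growth signal for fibroblasts and epithelium. Its level was 102, 62.8, 56.5 and 52.5 CPM in BLM 1 to 4 and 16.1, 49.9 and 19.7 CPM in BLM+HBO 1 to 3. All BLM+HBO mice were below the lowest BLM mouse, although BLM+HBO 2 was only just below it. The group means were 68.4 ± 22.6 CPM (SD, n = 4) and 28.6 ± 18.5 CPM (SD, n = 3). The log2 fold change was -1.26 (standard error 0.39, 95% confidence interval -2.13 to -0.39), a 2.39-fold lower level, with an edgeR P of 0.00918 and an adjusted P of 0.423.

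An exact permutation test over the 35 assignments of the mice to groups gave Ccn4 a two-sided P of 0.0286, the smallest that 4 against 3 mice allow. The fold change of Ccn4 passed both thresholds whichever mouse was left out, with log2 fold changes between -1.93 and -0.98. Its largest size was the value without BLM+HBO 2, with an adjusted P of 0.0266. Over all alternative fits, the adjusted P of Ccn4 ranged from 0.00483 to 0.802.

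Ccn2 (ENSMUSG00000019997.11, chromosome 10, 24595442 to 24598683, plus strand), the connective tissue growth factor, had 827, 598, 878 and 466 CPM in BLM 1 to 4. It had 382, 683 and 383 CPM in BLM+HBO 1 to 3. BLM+HBO 1 and 3 were below the lowest BLM mouse and BLM+HBO 2 was at 98.6% of the BLM mean. Its log2 fold change was -0.52 (standard error 0.27, 95% confidence interval -1.13 to 0.09), with an edgeR P of 0.0869 and an adjusted P of 0.527. Without BLM+HBO 2 it was -0.86, with an adjusted P of 0.127, and without BLM 4 it was -0.67, and both values passed the study's thresholds. Of its exon bases, 665 (23.2%) also belong to the antisense transcript Gm15270, and the counting used no strand and left out reads that fell in both genes. Gm15270 itself had at most 0.586 CPM.

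Ccn1 (ENSMUSG00000028195.4, chromosome 3, 145646976 to 145649981, minus strand), is an immediate early gene of growth factor and stretch responses. Its level was 429, 244, 403 and 402 CPM in BLM 1 to 4 and 291, 353 and 354 CPM in BLM+HBO 1 to 3. All BLM+HBO values lay within the BLM range, whose lower end was BLM 2. Its log2 fold change was -0.15 (standard error 0.19, 95% confidence interval -0.58 to 0.28, adjusted P 0.809), an interval that stayed within 1.5-fold in both directions. Without BLM 2, the low BLM mouse, it was -0.31 (adjusted P 0.698).

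Ccn5 (ENSMUSG00000027656.7, chromosome 2, 163820861 to 163833146, plus strand) encodes the CCN protein that lacks the C-terminal cystine knot module and is known to oppose Ccn2 in several tissues. It had between 61.1 and 107 CPM in BLM mice and 57.8, 82.4 and 86.7 CPM in BLM+HBO 1 to 3. The groups overlapped, with a log2 fold change of -0.15 (standard error 0.20, 95% confidence interval -0.59 to 0.30, edgeR adjusted P 0.821).

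Ccn3 (ENSMUSG00000037362.8, chromosome 15, 54745702 to 54754039, plus strand), a further CCN protein described as antagonising Ccn2, was the lowest CCN gene. It had between 4.16 and 8.68 CPM in BLM mice and 8.57, 5.50 and 9.15 CPM in BLM+HBO 1 to 3. The groups overlapped, and the estimate on the log2 scale was 0.22 (standard error 0.29, 95% confidence interval -0.43 to 0.87, edgeR adjusted P 0.815).

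Among the trimeric thrombospondins, Thbs2 (ENSMUSG00000023885.9, chromosome 17, 14665500 to 14694235, minus strand) fell. Thbs2 is known for its part in collagen fibril assembly and in clearing matrix metalloproteinases. Its level was 79.9, 37.0, 41.8 and 40.9 CPM in BLM 1 to 4 and 4.95, 37.5 and 11.6 CPM in BLM+HBO 1 to 3. The groups overlapped because BLM+HBO 2 was just above the lowest BLM mouse, and BLM 1 stood above the other BLM mice. The group means were 49.9 ± 20.1 CPM (SD, n = 4) and 18.0 ± 17.2 CPM (SD, n = 3). The log2 fold change was -1.47 (standard error 0.57, 95% confidence interval -2.75 to -0.19), a 2.77-fold lower level, with an edgeR P of 0.0283 and an adjusted P of 0.439.

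The exact permutation test gave Thbs2 a two-sided P of 0.0571. The call for Thbs2 was lost without BLM 1 (log2 fold change -1.15), without BLM+HBO 1 (-1.03) and without BLM+HBO 3 (-1.23), where the unadjusted edgeR P no longer passed. Without BLM+HBO 2 the log2 fold change was -2.58, with an adjusted P of 0.0308. Its adjusted P ranged from 0.0167 to 0.802 over the alternative fits.

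Thbs1 (ENSMUSG00000040152.8, chromosome 2, 118111876 to 118127133, plus strand) had 1607, 744, 1214 and 898 CPM in BLM 1 to 4. It had 265, 1020 and 562 CPM in BLM+HBO 1 to 3. Here too BLM+HBO 1 and 3 were below every BLM mouse, and BLM+HBO 2 was at 91.4% of the BLM mean. Its log2 fold change was -0.86 (standard error 0.41, 95% confidence interval -1.79 to 0.07), a 1.81-fold lower level that did not pass the P limit, with an edgeR P of 0.0664 and an adjusted P of 0.499. Without BLM+HBO 2 it was -1.43, with an adjusted P of 0.0925, and without BLM 2 it was -1.01, and both values passed the study's thresholds. The antisense transcript Gm29233 shares 208 exon bases (3.43%) with Thbs1 and had 0 reads in every mouse.

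Thbs1 is also stored in platelets, so platelet and megakaryocyte markers are given beside it. Their summed level was 49.8 to 67.9 CPM in BLM mice and 171, 65.5 and 63.1 CPM in BLM+HBO 1 to 3. The highest platelet sum and the lowest Thbs1 level were both in BLM+HBO 1. Of the 10 markers, 3 rose (Ppbp, Gp1ba and Treml1), 0 fell, and Gp1bb had no read. Without BLM+HBO 1, 1 rose, and without BLM+HBO 2, 7 rose. The part of platelets in the Thbs1 values was not tested.

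Among the pentameric genes, Thbs4 (ENSMUSG00000021702.7, chromosome 13, 92751590 to 92794818, minus strand), known from tendon and from injured heart and muscle, differed the most between BLM+HBO mice. Its level was 26.2, 33.3, 37.2 and 25.1 CPM in BLM 1 to 4 and 3.73, 41.0 and 4.76 CPM in BLM+HBO 1 to 3. BLM+HBO 2 was above every BLM mouse, and BLM+HBO 1 and 3 were far below the lowest. The highest BLM+HBO value was 11.0 times the lowest, against 1.48 times among BLM mice.

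With all mice, the log2 fold change of Thbs4 was -0.89 (standard error 0.70, 95% confidence interval -2.45 to 0.67), with an edgeR P of 0.232 and an adjusted P of 0.664. DESeq2 gave Thbs4 no P. Without BLM+HBO 2 the log2 fold change was -2.83, with an adjusted P of 0.00355, the lowest of the 10 genes in that fit. Without BLM+HBO 1 or BLM+HBO 3 it was -0.42 or -0.44. With all mice kept, Thbs4 passed both thresholds in limma-trend (-1.72) and with no filter on low counts (-0.90), so the call depended on the method as well as on single mice. Its adjusted P ranged from 0.00355 to 0.916 over the alternative fits.

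Thbs4 is also known from heart, so heart muscle markers are given beside it. They summed to 74.3 to 202 CPM in BLM mice and to 752, 594 and 173 CPM in BLM+HBO 1 to 3, and 10 of 12 rose, led by Mb, Ttn, Actc1 and Myh6. BLM+HBO 1, with the highest sum, had the lowest Thbs4 level, and BLM+HBO 2 had the highest Thbs4 level. The part of heart tissue in the Thbs4 values was not tested.

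Thbs3 (ENSMUSG00000028047.11, chromosome 3, 89215180 to 89226837, plus strand), a widely expressed thrombospondin, had 29.6, 37.0, 51.6 and 61.4 CPM in BLM 1 to 4. It had 51.3, 38.7 and 89.3 CPM in BLM+HBO 1 to 3. BLM+HBO 3 was above every BLM mouse and the other BLM+HBO mice lay within the BLM range. The estimate on the log2 scale was 0.41 (standard error 0.31, 95% confidence interval -0.27 to 1.1, edgeR adjusted P 0.648), and without BLM+HBO 3 it was -0.0034. Thbs3 shares 318 exon bases (6.59%) with Mtx1 on the opposite strand, a mitochondrial import gene that had between 22.5 and 31.3 CPM in all mice.

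Comp (ENSMUSG00000031849.9, chromosome 8, 70373558 to 70382066, plus strand), the cartilage oligomeric matrix protein, was near the limit of detection with 10 to 33 reads per mouse. Its level was 0.661 to 1.59 CPM in BLM mice and 0.532, 1.58 and 0.825 CPM in BLM+HBO 1 to 3. Its log2 fold change was 0.01 (standard error 0.48, 95% confidence interval -1.07 to 1.09, edgeR adjusted P 0.995). A difference within that interval was thus not excluded at this depth and number of mice. The airway cartilage markers, of which 5 of 12 passed the filter, summed to 70.5 to 148 CPM in BLM mice and 114 to 169 CPM in BLM+HBO mice. Most of that sum was Matn4, at 55.1 to 157 CPM, and the defining cartilage genes Col2a1, Acan and Matn1 reached at most 0.562, 0.239 and 0.383 CPM.

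**Figure D2:**
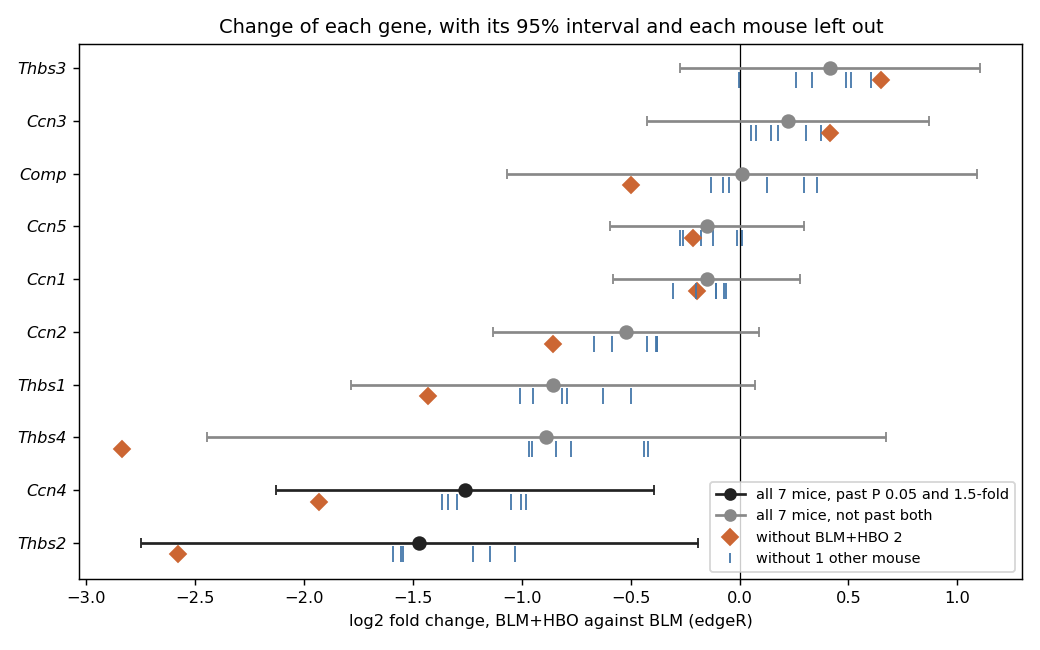
Log2 fold change of BLM+HBO against BLM (edgeR) for each gene over all 7 mice, with its 95% confidence interval (black, past both thresholds, grey, not past both), and the value with each mouse left out in turn (orange diamond, without BLM+HBO 2, blue ticks, without 1 other mouse). Only the intervals of Ccn4 and Thbs2 lie below 0, and the largest shift without BLM+HBO 2 is that of Thbs4, from -0.89 to -2.83.

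Promoter sequences of RefSeq (GRCm38.p6) were held for 4 of the 10 genes, Ccn1, Thbs2, Thbs3 and Thbs4, as 250 bases before to 50 after the start. The 250 bases before the start are shown for Thbs2 and Thbs4, both far lower in BLM+HBO 1 and 3 than in any BLM mouse, and for Ccn1, whose groups overlapped. Each is on the minus strand of the genome and is written 5′ to 3′ along the gene, at chr17:14694263-14694512 for Thbs2, chr13:92794819-92795068 for Thbs4 and chr3:145649986-145650235 for Ccn1. Capitals mark every match to the motif letters of SMAD, TEAD and the GC box, on either strand, and to those of the TATA box, on the sense strand.
Thbs2: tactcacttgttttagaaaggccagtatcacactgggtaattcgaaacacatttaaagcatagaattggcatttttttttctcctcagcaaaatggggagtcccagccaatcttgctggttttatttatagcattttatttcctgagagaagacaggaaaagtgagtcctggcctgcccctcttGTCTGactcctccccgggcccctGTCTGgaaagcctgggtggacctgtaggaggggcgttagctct
Thbs4: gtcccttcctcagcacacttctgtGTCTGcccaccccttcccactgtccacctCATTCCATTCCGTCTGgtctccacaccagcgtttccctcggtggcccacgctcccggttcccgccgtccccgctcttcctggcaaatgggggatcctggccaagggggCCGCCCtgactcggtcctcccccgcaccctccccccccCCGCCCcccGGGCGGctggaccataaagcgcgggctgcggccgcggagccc
Ccn1: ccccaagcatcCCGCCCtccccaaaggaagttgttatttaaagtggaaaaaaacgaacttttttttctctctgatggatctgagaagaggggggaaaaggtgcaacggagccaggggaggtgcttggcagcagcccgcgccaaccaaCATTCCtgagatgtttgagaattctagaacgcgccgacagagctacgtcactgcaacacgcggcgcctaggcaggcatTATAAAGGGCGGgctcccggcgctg

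Thbs2 and Thbs4 each held the SMAD letters, GTCTG, 2 times, and Ccn1 held them 1 time, from base 4 after the start and so outside the stretch shown. Of all 32851 promoters, 49.6% held these letters at least once. In Thbs2 these matches started 66 and 43 bases before the start. The TEAD letters, GGAATG, held by 14.7% of promoters, were found in Ccn1 and, as 2 overlapping matches, in Thbs4. The TATA box letters, TATAAA, held by 8.32%, were found in Ccn1 and in none of the other 3. GC boxes, spelt GGGCGG and held by 35.7% of promoters, were found in Ccn1, Thbs3 and Thbs4. The AP-1 letters TGACTCA, which read TGAGTCA on the other strand, were held by 5.20% of promoters. These letters, the HIF letters ACGTG (19.6%) and the CArG box (1.63%) were searched on both strands and had no match in the 4 windows. These are matches of letters in 1 window per gene, and binding was not measured.

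The mice can also be read across the genes. As a percentage of the BLM mean, BLM+HBO 1 was at 9.93% for Thbs2, 12.2% for Thbs4, 23.6% for Ccn4, 23.8% for Thbs1 and 55.2% for Ccn2. BLM+HBO 3 was at 23.2%, 15.6%, 28.8%, 50.3% and 55.3% for the same genes. BLM+HBO 2 was at 75.1%, 135%, 72.9%, 91.4% and 98.6%. For all 5 of these genes, the ones past both thresholds without BLM+HBO 2, the level was lowest in BLM+HBO 1 and highest in BLM+HBO 2, though Ccn2 was about the same in BLM+HBO 1 and 3. Picking genes by the fit without BLM+HBO 2 favours those low in BLM+HBO 1 and 3. The high place of BLM+HBO 2 thus partly follows from the choice of genes. For Ccn3 and Thbs3, BLM+HBO 2 was instead the lowest of the BLM+HBO mice, at 82.8% and 86.2% of the BLM mean, with BLM+HBO 3 at 138% and 199%.

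Likeness of profile was measured as the root mean square difference of log2 CPM over the 7 mice, after each gene was set to its own mean. This is a description over mice that share their libraries. The profile nearest to Ccn4 was that of Msr1, a scavenger receptor of macrophages, at 0.16 log2 units, followed by Sh2d5, at 0.16, and Cthrc1, a marker of collagen-producing fibroblasts, at 0.17. The profiles nearest to Thbs2 were those of Inhba, the activin A subunit, at 0.16, Gcnt4, a glycosyltransferase gene, at 0.18, and Wnt10a, a Wnt ligand, at 0.18. Among the set, Thbs1 was the nearest to Ccn4, at 0.37, in place 118 of 17464 genes. Ccn4 was the nearest to Thbs2, at 0.44, in place 47. Thbs2 was the nearest to Thbs4, at 0.59, in place 29. Ccn1 lay at 0.44 from its nearest gene of the set, Ccn2, in place 11624. Seen from Ccn2, the same distance put Ccn1 in place 3787. A place depends on how many genes vary about as much as the gene it starts from, so places are not comparable between genes.

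Levels between genes were compared per length, as TPM, the read count scaled to gene length and library. The mean over 7 mice was 640 ± 218 TPM for Ccn2, 533 ± 110 TPM for Ccn1 and 454 ± 229 TPM for Thbs1 (SD, n = 7). These 3 genes did not hold 1 order on this scale, since Ccn2 was above Ccn1 in 4 of 7 mice and Ccn1 above Thbs1 in 4 of 7. Ccn1 was above Thbs1 in 1 of 4 BLM mice and in 3 of 3 BLM+HBO mice. Together they made up 82.9% to 90.7% of the summed TPM of the 10 genes in every mouse, in both groups. The sum itself was 1607 to 2674 TPM in BLM mice and 1111, 2080 and 1399 TPM in BLM+HBO 1 to 3. TPM used the full gene length, while reads in the 23.2% of Ccn2 exon bases shared with Gm15270 were left out. The TPM of Ccn2 may thus be too low, and its place against Ccn1 was not settled.

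Below them, Ccn5 followed with 126 ± 24.2 TPM, under Thbs1 and above Thbs3 in all 7 mice. Thbs3 (32.1 ± 12 TPM), Ccn4 (28.2 ± 16.4 TPM), Thbs4 (22.7 ± 13.8 TPM) and Thbs2 (15.9 ± 11.0 TPM) came next, and each was above the next in only 4 or 5 of 7 mice, so their order over all mice was within the spread. The group means of Thbs3 and Ccn4 stood in opposite order, at 28.3 and 37.6 TPM in BLM and at 37.2 and 15.8 TPM in BLM+HBO. Ccn3 had 7.50 ± 1.90 TPM and was below Thbs2 in 5 of 7 mice, the exceptions being BLM+HBO 1 and BLM+HBO 3. Comp was the lowest in all 7 mice, at 0.996 ± 0.438 TPM.

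**Figure D3:**
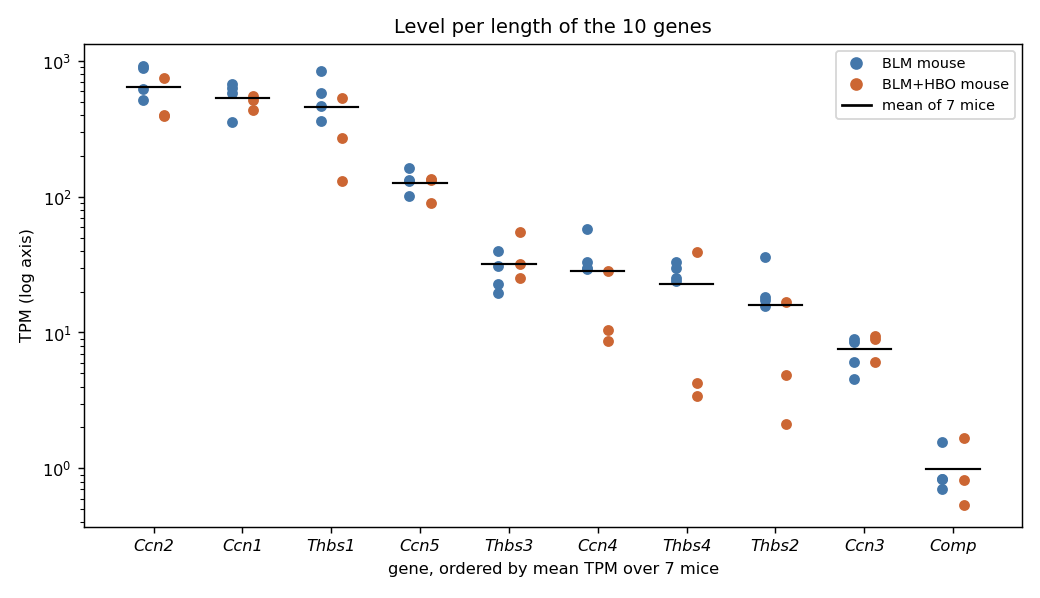
Level per length in TPM (log axis) of the 10 genes in each mouse (blue BLM, orange BLM+HBO), ordered by the mean over 7 mice (black line). Ccn2, Ccn1 and Thbs1 have the highest means, at 454 to 640 TPM, Comp is the lowest at 0.996 TPM, and Thbs4 and Thbs2 show the widest spread between BLM+HBO mice.

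Ratios between genes of 1 mouse cancel the library size. On the TPM scale, Thbs1 was 23.2 to 33.5 times Thbs2 in BLM mice and 61.8, 31.4 and 56.1 times Thbs2 in BLM+HBO 1 to 3 (two-sided exact permutation test, P = 0.0571). The balance of the trimeric genes was thus higher in BLM+HBO 1 and 3 than in any BLM mouse, and within the BLM range in BLM+HBO 2. The ratio of Ccn5 to Ccn4 was 1.74, 4.92, 4.53 and 4.36 in BLM 1 to 4 and 10.4, 4.78 and 12.7 in BLM+HBO 1 to 3 (two-sided exact permutation test, P = 0.0571). The ratio of Ccn2 to Ccn1 was 0.819 to 1.73 in BLM mice and 0.763 to 1.37 in BLM+HBO mice (two-sided exact permutation test, P = 0.286), and the groups overlapped. The size of this ratio may be too low, since reads that Ccn2 shares with Gm15270 were left out. In all, 6 ratios were computed, chosen with the levels known, and the lowest P adjusted over the 6 was 0.171.

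The summed myofibroblast markers, like Ccn4, Thbs1 and Thbs2, were lowest in BLM+HBO 1 and 3. The 10 myofibroblast markers summed to 6322 to 9906 CPM in BLM mice and to 1527, 6905 and 3254 CPM in BLM+HBO 1 to 3, which was 19.6%, 88.7% and 41.8% of the BLM mean. Of the 10, 3 fell, Acta2, Cthrc1 and Col1a1, and the estimate was below 0 for all 10. Of the 10 fibroblast markers, Dcn, Col1a2 and Col3a1 fell, and Tcf21 and Inmt, markers of alveolar fibroblasts, rose. The estimate was below 0 for only 4 of these 10 fibroblast markers, with a median log2 fold change of 0.14. With 1 mouse left out, 1 to 6 myofibroblast markers and 0 to 4 fibroblast markers fell, with the highest counts without BLM+HBO 2. The counts were lowest without BLM 1 or BLM+HBO 3, and for the fibroblast markers also without BLM+HBO 1. Of 10 smooth muscle and pericyte markers and 10 endothelial markers, 0 passed both thresholds in edgeR, with 0 and 1 at an unadjusted P below 0.05. Without BLM+HBO 2, 3 of the smooth muscle and pericyte markers fell. The part of these cell types in the CCN and thrombospondin values was not tested.

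Per 1000 reads of Col1a1, the main collagen gene of fibrotic lung, Ccn4 had 25.9 to 32.5 reads in BLM mice and 50.7, 27.6 and 21.6 reads in BLM+HBO 1 to 3, so 2 of the BLM+HBO mice lay on opposite sides of the BLM range and the third within it. Thbs2 had 16.5 to 25.5 reads in BLM mice and 15.6, 20.8 and 12.7 reads in BLM+HBO 1 to 3. Thbs1 had 333 to 558 reads in BLM mice and 834, 565 and 617 reads in BLM+HBO 1 to 3, above every BLM mouse on this scale. Ccn2 had 264 to 403 reads in BLM mice and 1200, 378 and 421 reads in BLM+HBO 1 to 3. Ccn1 had 109 to 227 reads in BLM mice and 914, 195 and 389 reads in BLM+HBO 1 to 3. This scale was chosen after the values were seen and was not tested.

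Of 17 other matricellular genes, 14 were tested, and 5 fell and 1 rose, with a median log2 fold change of -0.33. Tgfbi, a collagen and integrin binding protein, fell from 313 ± 15.5 CPM (SD, n = 4) to 207 ± 39.1 CPM (SD, n = 3), with a log2 fold change of -0.60. Spp1, osteopontin, fell from 4232 ± 508 CPM to 1584 ± 1282 CPM, with a log2 fold change of -1.42. Smoc2, a SPARC-related gene, had a log2 fold change of -1.06. The gene that rose was Tnxb, a tenascin of loose connective tissue, with a log2 fold change of 0.77. With 1 mouse left out, 1 to 6 of the list fell, 6 without BLM+HBO 2, 3 without BLM 1, BLM 4 or BLM+HBO 1, and 1 without BLM+HBO 3.

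The receptors of CCN proteins and thrombospondins are mostly integrins and proteoglycans, with Cd47 and Cd36 for Thbs1. All 18 listed receptors were tested and 0 passed both thresholds, with a median log2 fold change of -0.24. Without BLM+HBO 2, 6 of the 18 passed, all lower in BLM+HBO, without BLM 2 or BLM 3 2 passed and without BLM 4 1 passed. The thrombospondin receptors Cd47 and Cd36 were at 0.05 ± 0.12 and -0.02 ± 0.15 (log2 fold change ± standard error). For 5 receptors, named here after their values were seen, the unadjusted P was below 0.05 with a change under 1.5-fold: the integrin chains Itgav (-0.49), Itgb3 (-0.53), Itgb5 (-0.54) and Itga5 (-0.55), and the proteoglycan Sdc4 (-0.31).

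The pathways known to drive Ccn1 and Ccn2 were read by lists that exclude them. Of 20 other YAP and TAZ targets, F3, tissue factor, and Igfbp3, an IGF-binding protein, fell, with log2 fold changes of -0.65 and -0.85, and the median of the list was -0.18. With 1 mouse left out, 6 fell without BLM+HBO 2, 3 without BLM 2, 1 without BLM 1 or BLM+HBO 1, and 0 without BLM 3 or BLM+HBO 3. Of 16 genes of the pathway itself, Vgll3, a TEAD cofactor, fell, with a log2 fold change of -0.66, and the median was -0.05. The TGF-beta response list also holds ligands, receptors, Smad3 and latency proteins, so it is not a measure of the response alone. Of its 14 genes, 3 fell, among them Pmepa1 (-0.81) and the ligand Tgfb3 (-0.59), and 13 had an estimate below 0, with a median of -0.24. Their count was 4 without BLM+HBO 2, 2 without BLM+HBO 3, 1 without BLM 1 or BLM 2, and 0 without BLM+HBO 1. Of 20 immediate early genes, Myc (-0.85) and Egr2 (-0.65) fell and Nr4a1 (1.04) rose, with a median of -0.09. With 1 mouse left out, 1 to 3 of the immediate early genes fell and 0 to 2 rose.

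Markers of other cell types are given as counts, and no cell type was tested as such. Of 10 macrophage markers, 9 of them tested, 4 fell, Arg1, Marco, Trem2 and Adgre1. Their sum was 830 to 1098 CPM in BLM mice and 535, 907 and 573 CPM in BLM+HBO 1 to 3, lowest in the mice where Ccn4 and Thbs2 were lowest. Of 8 mesothelial markers, Msln and Wt1 fell. Of 10 alveolar epithelial markers, Sftpa1 rose. Of the cartilage list Sox9 fell, and of 10 skeletal muscle markers, 5 of them tested, Ckm rose and Acta1 fell. With 1 mouse left out, 3 to 6 macrophage markers and 0 to 4 mesothelial markers fell and 0 to 3 alveolar markers rose, with the highest counts without BLM+HBO 2.

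**Figure D4:**
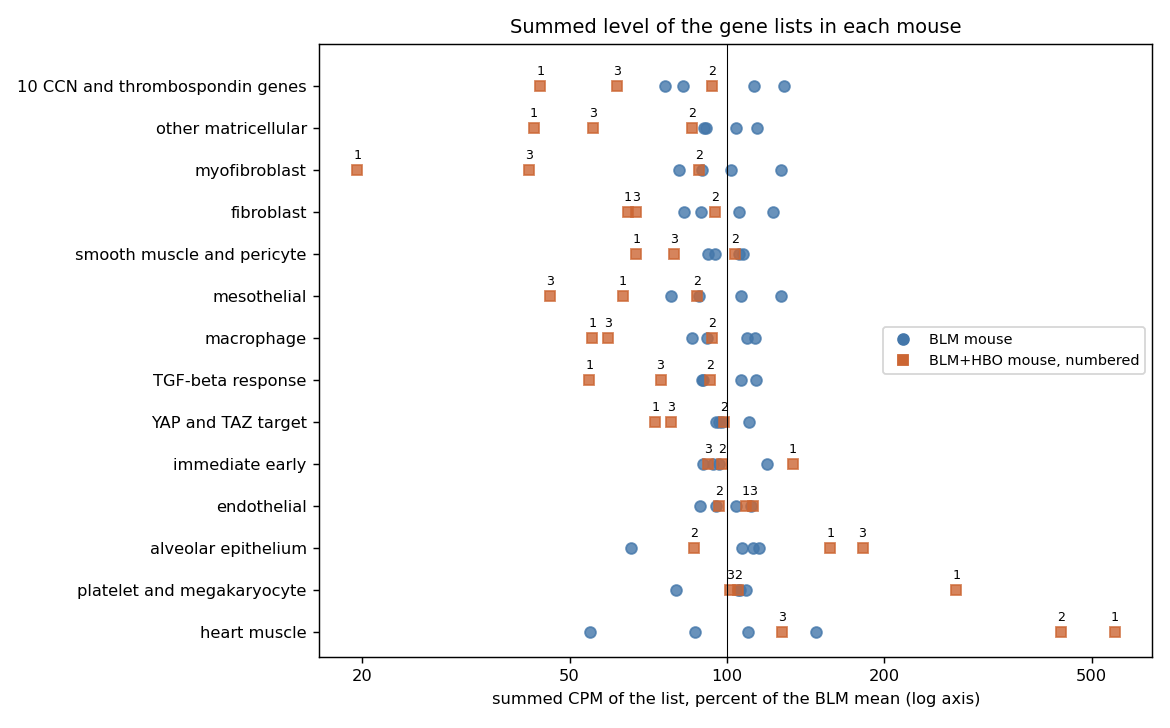
Summed CPM of each gene list in each mouse as a percentage of the BLM mean (log axis), with BLM mice as blue circles and BLM+HBO mice as numbered orange squares. The 10 CCN and thrombospondin genes, the other matricellular genes, the myofibroblast and the macrophage markers are lowest in BLM+HBO 1 and next lowest in BLM+HBO 3, with BLM+HBO 2 at 85.7% to 93.9% of the BLM mean.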

How the data were processed

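RNA was extracted from lung tissue, and libraries were made with a NEBNext Ultra kit. According to the labels and the study's methods, the authors trimmed the reads, mapped them to GRCm38 with HISAT2 2.2.0 and made the deposited raw counts per gene with featureCounts at its defaults. The deposited counts were not normalized. All 7 columns were assigned to mice from their labels, and 0 columns were left unused. Symbols came from GENCODE vM21 and were given to 55141 of 55401 genes. TPM was computed here from the counts and the deposited gene lengths.

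The filterByExpr function of edgeR (at least 10 reads, total at least 15) kept 17465 genes, which were normalized by TMM (factors 0.964 to 1.036) in edgeR 4.0.16 under R 4.3.3. The quasi-likelihood test had group as its only term and BLM as the reference. Its common biological coefficient of variation was 0.222. P-values were adjusted by Benjamini-Hochberg over all genes tested. CPM used the normalized library sizes, and log2 CPM a prior count of 2. Confidence intervals are at 95%. For single values, exact two-sided permutation tests used all 35 assignments, whose smallest P is 0.0286. The test was tested on simulated data. DESeq2 1.42.0, limma-trend (limma 3.58.1), other factors, filters and thresholds, a robust fit, a replicate block and leaving out each mouse were the alternatives.

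The 10 genes and the 17 gene lists beside them were chosen with earlier results of these data known. Named were all 10 genes, every list gene past both thresholds (for lists with more than 4, the 4 with the smallest P), and the 3 nearest profiles of each of the 10 genes that was called. The edgeR P-values weigh the difference between groups against the spread between these mice. 1 gene of the TGF-beta response list is not reported here by name. Comparisons with unchallenged lungs were not analysed here.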

Additional observations from a re-analysis of the deposited data

Results flagged for a closer look

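In groups of 4 BLM mice, 1 mouse stood apart from the others in 4 of 27 sets of values examined, where its gap to the nearest mouse took up a share of the whole range above Dixon's 95% limit, and chance flags about 1 in 20. For Ccn1, BLM 2 (244 CPM) lay below the other BLM mice with a gap of 0.882 of the range of log2 CPM. For Thbs2, BLM 1 (79.9 CPM) lay above the others with a gap of 0.841. For the platelet and megakaryocyte markers, BLM 2 lay below the others with a gap of 0.882, at a sum of 49.8 CPM. For the alveolar epithelial markers, BLM 1 lay below the others with a gap of 0.863, at a sum of 10939 CPM. Groups of 3 BLM+HBO mice were not examined in this way.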

How the results depend on the processing

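The number of all genes past both thresholds was 1098, and it was 1940 with no filter on low counts, 319 with a P limit of 0.01, 509 with a fold change above 2, 1861 with no fold limit, and 659 to 1914 with 1 mouse left out. This number was 1396 with DESeq2, 1167 with limma-trend and 1047 with the robust fit. After adjustment the count was 0, but 151 with DESeq2, 387 with no filter and 0 to 267 with 1 mouse left out, the highest without BLM+HBO 2. Of the 10 CCN and thrombospondin genes, 2 were called, against 4 with limma-trend, 4 with no filter, 1 with the robust fit, 1 with a P limit of 0.01 and 1 to 5 with 1 mouse left out. After adjustment 0 were called, against 2 with no filter and 0 to 3 with 1 mouse left out. Thbs1 passed both thresholds with limma-trend (log2 fold change -1.001) and with no filter (-0.86), as did Thbs4 (-1.72 and -0.90). Thbs2 did not pass with the robust fit (-1.47, edgeR P = 0.0517) or in the exact permutation test (-1.87, P = 0.0571). Comp turned to -0.0373 with limma-trend and on the log2 CPM scale of the permutation test. With 1 mouse left out, the log2 fold changes ranged from -0.31 to -0.06 for Ccn1, -0.86 to -0.38 for Ccn2, 0.05 to 0.41 for Ccn3, -1.93 to -0.98 for Ccn4, -0.27 to 0.0114 for Ccn5 (above 0 without BLM+HBO 1), -1.43 to -0.50 for Thbs1, -2.58 to -1.03 for Thbs2, -0.0034 to 0.65 for Thbs3 (below 0 without BLM+HBO 3), -2.83 to -0.42 for Thbs4 and -0.50 to 0.35 for Comp, which was -0.13, -0.05 and -0.08 without BLM 1, BLM 2 and BLM 4. The list genes past both thresholds numbered 46, and 21 to 78 with 1 mouse left out. By CPM, not divided by length, the order of the 10 genes was Thbs1 in place 1, Ccn2 in place 2, Ccn1 in place 3, Ccn4 in place 5, Thbs3 in place 6, Thbs2 in place 7 and Thbs4 in place 8. Ccn4 and Thbs3 exchanged places 5 and 6 per length without BLM+HBO 3. RLE and upper-quartile factors, DESeq2 and a filter of 1 CPM in 3 mice, which Comp did not pass, kept the same 2 of the 10 genes past both thresholds. The causes of these shifts were not tested. Comp rested on 10 to 33 reads per mouse.

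The correlations of same-numbered mice were -0.008, -0.07 and 0.16, and not every mouse correlated best with its own number. The replicate numbers thus showed no clear pairing of the mice, though so few mice cannot exclude it. With the replicate block, in which BLM 4 had no partner, 4 of the 10 genes passed both thresholds, as did 1258 of all genes. The block gave log2 fold changes of -0.71 for Ccn2 and -1.82 for Thbs4, past both thresholds, and -0.12 for Comp.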
